A study of Saccharomyces cerevisiae with 24 samples.

Results

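This comparison asked what loss of YOX1 changed in cells that already lacked YHP1. The 3 samples of the yhp1Δ yox1Δ strain were set against the 3 samples of the yhp1Δ strain, in RNA-seq of budding yeast (Saccharomyces cerevisiae). Values were deposited as TPM, a transcript abundance scaled to a fixed total in each sample, for 7126 annotated genes, and the 6311 genes with a mean of at least 1 TPM over the 12 samples of the deletion set were tested. The series holds 24 samples. The deletion set also holds yox1Δ and wild type, with 3 biological replicates each, and their effect of losing YOX1 with YHP1 present is given beside the main comparison.

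All 4 strains are MATa derivatives of BY4741, grown without synchronisation in rich medium, and all carry ura3Δ0, leu2Δ0 and a his3 allele (his3Δ0 in the labels, his3Δ1 in the study's strain list). The double deletion carries yox1Δ::NatMX, yhp1Δ::LEU2 and met15Δ0. The yhp1Δ strain carries yhp1Δ::LEU2 and lys2Δ0, and it is the only strain of the set without met15Δ0. The yox1Δ strain carries yox1Δ::KanMX and met15Δ0, with no LEU2 marker. The wild type carries met15Δ0, a V5-tagged YOX1 linked to KanMX and a MYC-tagged YHP1 linked to LEU2. Each group is 1 strain, so a difference between 2 strains can belong to any allele that differs between them, and p-values measure the spread between cultures of those strains. YOX1 loss cannot be told apart here from the change at the lysine and methionine loci.

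Yhp1 and Yox1 are homeodomain repressors. They bind promoters together with Mcm1, a MADS-box protein, at elements in which a short homeodomain site lies close to the Mcm1 site, called the P-box. Through such early cell cycle boxes they hold down genes of the passage from mitosis to G1, among them genes of Start and of the MCM2-7 helicase, until the repressors themselves disappear. Many Mcm1 sites in promoters of mitotic genes are shared with forkhead factors instead.

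Across all tested genes, 26 were higher in yhp1Δ yox1Δ than in yhp1Δ at an adjusted p below 0.1 (0.412% of the 6311) and 8 were lower (0.127%), by limma with Benjamini-Hochberg adjustment. They are called higher and called lower below. YOX1 and MET17 among the falls and LYS2 among the rises are loci at which the genotypes differ. The remaining rises were led by PRY1, DBF2, PIG1, HST4 and 4 genes of the MCM2-7 helicase. The median log2 difference of all tested genes was 0.02. In all 34 called genes the groups did not overlap, which was so, upward, for 463 of all tested genes (7.34%) and, downward, for 823 (13%). At an unadjusted p below 0.05, 161 genes were higher (2.55%) and 149 were lower (2.36%).

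Both strains had between 18.2 and 18.9 M fragments per sample, as recovered from the TPM values. Samples of the double deletion correlated with each other at 0.993 to 0.995 on the log2 scale, and yhp1Δ samples at 0.984 to 0.993, with replicate 2 of yhp1Δ the lowest in both of its pairs. Without that replicate 21 genes were called higher and 8 lower. The count of genes called higher was 13 without replicate 1 of yhp1Δ yox1Δ, 14 without its replicate 2 and 14 without replicate 1 of yhp1Δ. The labelled mating type held: the 7 MATa markers averaged between 15.4 (ASG7) and 6367 TPM (MFA2) in yhp1Δ yox1Δ and between 15.1 and 4942 TPM in yhp1Δ, while the 4 MATα markers lay between 1.62 (MF(ALPHA)1) and 21.2 TPM (SAG1) in yhp1Δ yox1Δ and between 1.26 and 23.3 TPM in yhp1Δ.

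In 4 of the genes called higher, the 500 bases before the start codon held a P-box and the homeodomain core TAATTA with a gap of at most 40 bases. These stretches are shown because both motifs match in them, as separate sites in PRY1, DBF2 and UTR2 and as overlapping matches in KIN3. The stretches were read from the R64 assembly on the strand of the gene, with the matches in capitals:

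PRY1: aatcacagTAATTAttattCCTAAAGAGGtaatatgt

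DBF2: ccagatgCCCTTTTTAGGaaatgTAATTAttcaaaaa

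UTR2: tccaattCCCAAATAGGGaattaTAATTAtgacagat

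KIN3: ttacgtttCCTAATTAGGttaaacgt

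The PRY1 stretch is chrX:291231-291267 on the minus strand, 457 to 493 bases before the start codon. The DBF2 stretch is chrVII:667935-667971 on the plus strand, 218 to 254 bases before it. The UTR2 stretch is chrV:77758-77794 on the plus strand, 259 to 295 bases before it. In PRY1, DBF2 and UTR2 the gap between both matches was 5 bases, with TAATTA on the far side of the P-box from the start codon in PRY1 and on the near side in DBF2 and UTR2. The KIN3 stretch is chrI:171821-171846 on the minus strand, 118 to 143 bases before the start codon, and there TAATTA lay inside the P-box match, an overlap seen in 19 of the 5732 windows searched.

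Both motifs within 40 bases were found in 4 of the 23 windows of genes called higher (17.4%), against 103 of the 5732 windows of all tested protein-coding genes (1.8%). These counts include windows in which the motifs overlap, 1 of the 4 (KIN3) and 19 of the 103. The P-box consensus alone, searched on both strands, matched in 15 of the 23 (65.2%), against 1732 of all windows (30.2%). TAATTA alone matched in 9 of the 23 (39.1%), against 1415 of all windows (24.7%). Of the 6 windows of genes called lower, 3 held the P-box, 3 held TAATTA, and none held both within 40 bases. A match is a stretch of letters and not a measured binding site. The windows are not all independent. Those of PIG1 and MCM5 overlap, as do those of YNL146W and YNL146C-A. The P-box match of the first pair is the same stretch in both windows, as is the TAATTA match of the second, and each is counted for both genes. LYS2, a locus at which the genotypes differ, adds to the P-box and to the TAATTA count. Of the 26 genes called higher, 3 tRNA genes had no window.

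The helicase genes shown next had a P-box match without TAATTA within 40 bases, and are shown for comparison with the stretches above:

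MCM5: gcgtgtttCCCTTTTAGGaaaagtga

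MCM3: ttacttttCCTAAATGGGtaaaaact

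MCM7: ggaaatttCCTTATAAGGaaaataaa

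They lie at chrXII:691396-691421, chrV:86747-86772 and chrII:625554-625579, all on the plus strand, and end 134, 165 and 193 bases before their start codons. No match to the consensus was found in the window of MCM4.

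PRY1, which encodes a secreted protein of the CAP superfamily that binds sterols, showed the largest rise among genes that no strain allele touches and that had more than 50 fragments in each sample. It had 636, 665 and 720 TPM in yhp1Δ yox1Δ, against 196, 246 and 213 TPM in yhp1Δ. The lowest sample of the double deletion was far above the highest sample of yhp1Δ. PRY1 was 3.09-fold higher, by 1.63 on the log2 scale (SE 0.12, adjusted p = 1.4e-05 by limma), and was called in all 12 fits that leave out 1 sample. Its paralog PRY2, with the same activity, had 618, 618 and 513 TPM in yhp1Δ yox1Δ, against 391, 401 and 313 TPM in yhp1Δ. The groups did not overlap, and replicate 3 was the lowest of both. PRY2 was higher by 0.67 (SE 0.14, limma adjusted p = 0.086), a call kept in 4 of 12 such fits and lost without any one of the 6 samples compared or without replicate 2 or 3 of yox1Δ (adjusted p up to 0.424). PRY3, the third member, did not pass, at 111 TPM in yhp1Δ yox1Δ against 129 TPM in yhp1Δ (log2 difference -0.21, SE 0.13, adjusted p = 0.81).

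The SUN family of cell wall proteins had 1 called member of 4. NCA3 had 115, 109 and 79.7 TPM in yhp1Δ yox1Δ, against 40.3, 46.7 and 38.7 TPM in yhp1Δ, and replicate 3 of the double deletion was again its lowest. NCA3 was higher by 1.24 (SE 0.22, limma adjusted p = 0.027). UTH1, the most abundant member, averaged 2721 ± 238 TPM in yhp1Δ yox1Δ and 2010 ± 143 TPM in yhp1Δ (SD, n = 3 each). Its log2 difference of 0.44 (SE 0.09) missed the threshold, at a limma adjusted p of 0.11. SUN4 and SIM1 had log2 differences of -0.20 and -0.15, with adjusted p-values of 0.81. Without replicate 1 of yhp1Δ yox1Δ, its replicate 2, or replicate 1 or 3 of yhp1Δ, the call of NCA3 was lost (adjusted p = 0.185, 0.162, 0.131 and 0.124).

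**Figure D1:**
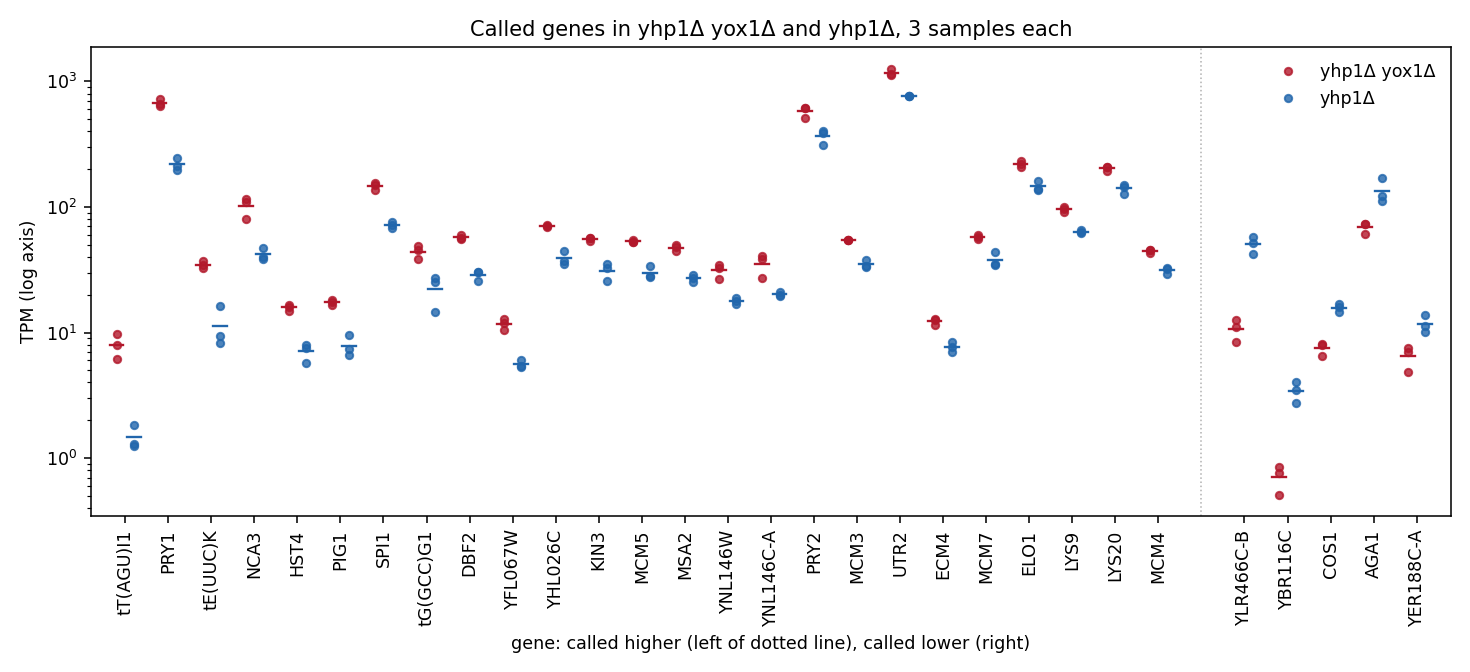
TPM on a log axis for 30 called genes in the 3 samples of yhp1Δ yox1Δ (red, left of each pair) and of yhp1Δ (blue), with a short line at each mean; YOX1, LYS2, MET17 and YCL021W-A are plotted separately. The 25 genes left of the dotted line were called higher and the 5 on its right called lower, and in none of them do the points of both strains overlap.

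Of the 6 subunits of the MCM2-7 helicase, which unwinds DNA at replication forks, 4 were called higher. All 6 were above yhp1Δ without overlap, which was so for 7.34% of all tested genes. Their median log2 difference was 0.55, against 0.02 for all tested genes. MCM5 changed most. It had 52.5, 52.8 and 55.0 TPM in yhp1Δ yox1Δ, against 27.9, 33.6 and 28.0 TPM in yhp1Δ, and was higher by 0.82 (SE 0.13, limma adjusted p = 0.013). MCM3 had 54.2, 54.3 and 54.3 TPM in yhp1Δ yox1Δ, against 33.8, 38.1 and 33.4 TPM in yhp1Δ, a log2 difference of 0.62 (SE 0.11, adjusted p = 0.024 by limma). Samples of the double deletion were nearly equal for MCM3, and replicate 2 of yhp1Δ was the highest of its group in both genes. MCM7 was higher by 0.60 and MCM4 by 0.49 (limma adjusted p = 0.050 and 0.078). MCM2 averaged 30.6 ± 0.822 TPM in yhp1Δ yox1Δ and 22.9 ± 0.516 TPM in yhp1Δ (SD, n = 3 each), and MCM6 averaged 29.5 ± 1.26 TPM in yhp1Δ yox1Δ and 22.4 ± 1.63 TPM in yhp1Δ. Neither passed, with limma adjusted p-values of 0.27 and 0.21, although limma-voom on the recovered fragments gave 0.052 and 0.072.

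The call of MCM5 was kept in all 12 fits that leave out 1 sample. The calls of MCM3 and MCM7 were lost without any one sample of yhp1Δ yox1Δ and without replicate 1 or 3 of yhp1Δ, with adjusted p up to 0.140 and 0.276. The call of MCM4 was lost without any one of the 6 samples compared and without replicate 2 or 3 of yox1Δ, with adjusted p up to 0.382. The difference was between 0.45 and 0.71 in every such fit for MCM3, MCM4 and MCM7.

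Of the 8 other genes of origin licensing, ORC1 to ORC6, CDC6 and TAH11 (the yeast CDT1 gene), none was called, and none had an unadjusted p below 0.05. Their log2 differences lay between -0.17 (ORC5) and 0.32 (CDC6), with a median of 0.10. CDC6, which loads the helicase onto origins, averaged 13.3 TPM in yhp1Δ yox1Δ and 10.5 TPM in yhp1Δ.

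Among 10 Start regulators, 1 was called. MSA2, a paralog of the SBF and MBF coactivator MSA1, had 49.4, 47.8 and 44.3 TPM in yhp1Δ yox1Δ, against 25.3, 27.2 and 28.5 TPM in yhp1Δ. All samples of the double deletion were well above those of yhp1Δ. It was higher by 0.78 (SE 0.14, limma adjusted p = 0.026), a call lost without replicate 1 or 2 of yhp1Δ yox1Δ or replicate 1 of yhp1Δ (adjusted p = 0.178, 0.144 and 0.132). MSA1 averaged 71.0 TPM against 48.9 TPM, and SWI4, the DNA-binding subunit of SBF, 14.2 TPM against 10.6 TPM, in yhp1Δ yox1Δ against yhp1Δ. Neither passed (log2 differences 0.55 and 0.39, limma adjusted p = 0.30 and 0.59), although neither overlapped between strains. CLN3, the G1 cyclin that starts the cycle, had a log2 difference of 0.14, and FAR1, the inhibitor of G1 cyclin kinase, one of -0.25 (adjusted p = 0.84 and 0.81). The ECM4 gene, for a glutathione transferase, lies 257 bases upstream of MSA2 on the same strand of chromosome XI. It averaged 12.3 ± 0.743 TPM in yhp1Δ yox1Δ and 7.70 ± 0.717 TPM in yhp1Δ (SD, n = 3 each), and was higher by 0.61 (SE 0.12, limma adjusted p = 0.046), a call kept in 7 of the 12 fits that leave out 1 sample and lost without any one sample of yhp1Δ yox1Δ or replicate 1 or 2 of yhp1Δ (adjusted p up to 0.258).

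DBF2, the kinase of the mitotic exit network that acts on Cdc14, was the most clearly changed cell cycle kinase. It had 59.7, 56.9 and 56.1 TPM in yhp1Δ yox1Δ, against 30.6, 25.8 and 30.5 TPM in yhp1Δ. The lowest sample of the double deletion was far above the highest of yhp1Δ. The fold was 1.96, with a log2 difference of 0.97 (SE 0.10, adjusted p = 0.00066 by limma), and the call was kept in all 12 fits that leave out 1 sample. Of the 32 mitotic exit genes on the list, DBF2 was the only one called, and the median of the list was 0.05. CDC5, the polo kinase, averaged 49.7 TPM in yhp1Δ yox1Δ and 58.4 TPM in yhp1Δ, and APC1, a subunit of the anaphase-promoting complex, 5.02 and 6.85 TPM. Both had an unadjusted p below 0.05 and did not pass the adjustment (adjusted p = 0.81).

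KIN3, a kinase of the NIMA family, had 57.0, 53.6 and 56.2 TPM in yhp1Δ yox1Δ, against 32.7, 25.6 and 35.0 TPM in yhp1Δ. The groups lay apart, with the wider spread in yhp1Δ. KIN3 was higher by 0.83 (SE 0.17, limma adjusted p = 0.071), and the call was lost without any one of the 6 samples compared, without replicate 3 of yox1Δ or without replicate 3 of wild type (adjusted p up to 0.3). Of 19 G2/M genes, KIN3 and DBF2 were the 2 called, both higher. CLB2, the main mitotic cyclin, averaged 59.6 TPM in yhp1Δ yox1Δ and 79.5 TPM in yhp1Δ, and CHS2, the septum chitin synthase, 24.5 and 34.8 TPM. Both were below yhp1Δ in all samples and did not pass (log2 differences -0.41 and -0.47, limma adjusted p = 0.65 and 0.54). Among 31 G1/S genes and 17 M/G1 genes none was called, with medians of 0.05 and -0.19. None of the 5 condensin genes or the 10 histone genes was called. Their medians were -0.10 and 0.20, and all 10 histone differences were above 0, between 0.01 and 0.35. None of the 10 had an unadjusted p below 0.05, and 3367 of all 6311 tested genes had a difference above 0. NDL1, which encodes a NudE-like protein of the dynein pathway, averaged 105 ± 4.05 TPM in yhp1Δ yox1Δ and 54.4 ± 11.3 TPM in yhp1Δ (SD, n = 3 each), with an adjusted p of 0.13. It was chosen for mention after its value was seen, and it passed without replicate 1 of yox1Δ or replicate 2 of wild type (adjusted p = 0.028 and 0.094), with the replicate number as a block (0.042) and in a fit of both strains alone (0.050).

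PIG1, a likely targeting subunit of the Glc7 phosphatase for glycogen synthase, and MCM5 share 1 intergenic region of 525 bases on chromosome XII, from which they are read in opposite directions. PIG1 had 16.6, 17.5 and 18.1 TPM in yhp1Δ yox1Δ, against 7.44, 9.50 and 6.65 TPM in yhp1Δ. Every sample of the double deletion was above every yhp1Δ sample, and in yhp1Δ replicate 2 was the highest, as for MCM5. PIG1 was higher by 1.06 (SE 0.14, limma adjusted p = 0.0044). It was the only one called of the 11 genes on the glycogen list.

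HST4, a sirtuin that removes acetyl groups from histone H3, had 14.9, 16.7 and 16.1 TPM in yhp1Δ yox1Δ, against 7.52, 5.71 and 7.97 TPM in yhp1Δ. These are 367 to 417 fragments in yhp1Δ yox1Δ and 135 to 198 in yhp1Δ, with no overlap. HST4 was higher by 1.08 (SE 0.14, limma adjusted p = 0.0054) and kept its call in all 12 fits that leave out 1 sample. SPI1, a cell wall protein induced in stationary phase, had 150, 155 and 136 TPM in yhp1Δ yox1Δ, against 67.6, 76.0 and 71.5 TPM in yhp1Δ. The samples fell into tight groups. SPI1 was 2.04-fold higher (log2 difference 1.03, SE 0.16, limma adjusted p = 0.013). UTR2, a cell wall chitin transglycosylase, averaged 1175 ± 78.0 TPM in yhp1Δ yox1Δ and 766 ± 3.69 TPM in yhp1Δ (SD, n = 3 each), a log2 difference of 0.62 (SE 0.10, adjusted p = 0.013 by limma). These were the 2 called of 17 cell wall genes. CRH1, the paralog of UTR2, averaged 295 TPM in yhp1Δ yox1Δ against 219 TPM in yhp1Δ and did not pass (adjusted p = 0.31). ELO1, a fatty acid elongase, averaged 220.2 ± 12.5 TPM in yhp1Δ yox1Δ and 146 ± 12.8 TPM in yhp1Δ (SD, n = 3 each), higher by 0.59 (SE 0.10, limma adjusted p = 0.016). The call of ELO1 was lost without replicate 1 of yhp1Δ yox1Δ or replicate 1 of yhp1Δ (adjusted p = 0.140 and 0.107).

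3 uncharacterized genes rose with them. YHL026C had 70.9, 72.0 and 69.4 TPM in yhp1Δ yox1Δ, against 44.5, 35.2 and 37.4 TPM in yhp1Δ, higher by 0.85 (SE 0.11, limma adjusted p = 0.0054). YNL146W and YNL146C-A are read in opposite directions from either side of 134 bases on chromosome XIV. YNL146W averaged 31.3 ± 4.31 TPM in yhp1Δ yox1Δ and 17.8 ± 0.974 TPM in yhp1Δ (SD, n = 3 each), and YNL146C-A averaged 35.4 ± 7.25 and 20.1 ± 0.669 TPM in the same strains. Their log2 differences were 0.77 and 0.77, with limma adjusted p of 0.013 and 0.035. YNL146W lost its call without replicate 2 of yhp1Δ yox1Δ (adjusted p = 0.103), and YNL146C-A lost it without replicate 1 or 2 of yhp1Δ yox1Δ or any one sample of yhp1Δ (adjusted p up to 0.239).

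The subtelomeric gene YFL067W, which starts at base 836 of chromosome VI, averaged 11.7 ± 1.19 TPM in yhp1Δ yox1Δ and 5.58 ± 0.390 TPM in yhp1Δ (SD, n = 3 each), higher by 0.95 (SE 0.17, limma adjusted p = 0.035). It belongs to a repeated family, so its fragments are uncertain, and its call was lost without replicate 1 or 2 of either strain (adjusted p up to 0.231). Of the 29 called genes with coordinates, 3 lie within 25 kb of a chromosome end (10.3%), against 232 of 5732 tested genes (4.05%). The other 2, COS1 and YER188C-A, were called lower. YLR466C-B, YBR116C and the tRNA genes, also called, had no coordinates here and are outside this count.

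3 tRNA genes were called higher, with few fragments. tT(AGU)I1 had 8.02, 9.77 and 6.10 TPM in yhp1Δ yox1Δ, from 10 to 16 fragments, against 1.25, 1.29 and 1.84 TPM in yhp1Δ, from 2 to 3 fragments. tE(UUC)K had 53 to 59 fragments in yhp1Δ yox1Δ and 13 to 25 in yhp1Δ, and tG(GCC)G1 had 61 to 77 and 23 to 41. They were higher, with log2 differences of 1.85 and 1.6 for the first pair and a fold of 1.99 for tG(GCC)G1, and limma adjusted p of 0.0084, 0.011 and 0.056. With a pseudocount of 0.1 the log2 difference of tT(AGU)I1 was 2.36. The call of tG(GCC)G1 was lost without any one sample of yhp1Δ yox1Δ, replicate 1 of yhp1Δ or replicate 3 of yox1Δ (adjusted p up to 0.291). Each belongs to a family of near-identical copies, and mature tRNAs have no poly(A) tail, so these values are uncertain.

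8 genes were called lower. In YOX1 itself, 1.71, 1.39 and 1.81 TPM were left in yhp1Δ yox1Δ, against 38.6, 48.7 and 39.1 TPM in yhp1Δ. This is 36 to 47 fragments in the deletion against 979 to 1198, a log2 difference of -4.03 (SE 0.14, adjusted p = 3.8e-09 by limma). YHP1 had 1 fragment in 1 sample of yhp1Δ yox1Δ and none in yhp1Δ, which matches the labelled deletions. The genes next to YOX1 (TSA1 and RPS18B) and to YHP1 (RPS18A and PPN1) were not called, with log2 differences of 0.06, 0.06, 0.06 and 0.30. RPS18A and RPS18B are near-identical copies, so reads may be split between them.

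AGA1, the anchor subunit of a-agglutinin, which holds mating cells together, had 73.1, 72.5 and 60.7 TPM in yhp1Δ yox1Δ, against 121, 170.3 and 111 TPM in yhp1Δ. All samples of the double deletion were lower, and replicate 2 of yhp1Δ was the highest. AGA1 fell by 0.93 on the log2 scale (SE 0.17, limma adjusted p = 0.031), and its call was lost without any one sample of yhp1Δ yox1Δ (adjusted p = 0.125, 0.116 and 0.178). It was the only called member of 12 pheromone response genes, of which 7 lay below yhp1Δ without overlap and 6 had an unadjusted p below 0.05, all lower, with a median of -0.30. Of all tested genes, 13% lay below without overlap and 2.36% were lower at an unadjusted p below 0.05. SST2, which switches off the pheromone G protein, averaged 79.9 TPM in yhp1Δ yox1Δ and 123 TPM in yhp1Δ, and FUS1, needed for cell fusion, 11.2 and 17.2 TPM (limma adjusted p = 0.13 and 0.31). Of the 7 MATa-specific genes none was called, and BAR1, STE2 and AGA2 had an unadjusted p below 0.05, with log2 differences of -0.53, -0.32 and -0.56. MFA2 and MFA1, which encode a-factor, had differences of 0.35 and 0.12.

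The other falls were in short or repeated genes and at strain loci. YLR466C-B had 8.47, 12.6 and 11.0 TPM in yhp1Δ yox1Δ, from 22 to 33 fragments, against 42.2, 51.9 and 58.2 TPM in yhp1Δ (log2 difference -2.15, SE 0.20, limma adjusted p = 0.00017). COS1, of a subtelomeric family, averaged 7.52 ± 0.857 TPM in yhp1Δ yox1Δ and 15.8 ± 1.13 TPM in yhp1Δ (SD, n = 3 each), lower by 0.98 (SE 0.15, limma adjusted p = 0.013). YER188C-A fell by 0.78 on the log2 scale (SE 0.17, limma adjusted p = 0.096), a call lost in all 12 fits that leave out 1 sample (adjusted p up to 0.4). COS1 and YER188C-A have relatives at other chromosome ends, and their fragments are uncertain.

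Large differences were also seen at LYS2 and MET17, loci that the genotypes name. LYS2, the aminoadipate reductase deleted in the yhp1Δ strain, had 25.1, 22.6 and 24.2 TPM in yhp1Δ yox1Δ, against at most 4 fragments per sample in yhp1Δ. MET17 (the current name of MET15), a sulfhydrylase of methionine synthesis, had at most 1 fragment per sample in yhp1Δ yox1Δ, against 131, 181 and 124 TPM in yhp1Δ. YBR116C, which lies at the LYS2 locus, had 6 to 10 fragments in yhp1Δ yox1Δ and 32 to 45 in yhp1Δ (log2 difference -1.37, SE 0.21, limma adjusted p = 0.012). At these loci the strains differ by the alleles met15Δ0 and lys2Δ0, which cannot be told apart from YOX1 loss. LEU2, which marks yhp1Δ in both strains, averaged 56.8 ± 1.92 TPM in yhp1Δ yox1Δ and 57.2 ± 2.38 TPM in yhp1Δ (SD, n = 3 each). HIS3 did not pass (log2 difference 0.22, adjusted p = 0.84), and URA3 was listed at 0 in all 12 samples of the deletion set.

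YCL021W-A, an open reading frame of unknown function on chromosome III (83620 to 83997), was at 1 fragment in 1 sample of yhp1Δ yox1Δ and none in the others, against 27.5, 29.1 and 29.9 TPM in yhp1Δ. The genotypes name no allele of it. LEU2, deleted at its own locus in all 4 strains, starts at 91324 on the same chromosome. YCL021W-A averaged 31.0 ± 1.89 TPM in yox1Δ and 27.0 ± 3.44 TPM in wild type (SD, n = 3 each), so the double deletion stood apart from all 3 other strains. The flanking genes KCC4 and, beyond the LEU2 locus, NFS1 were not called (log2 differences 0.22 and -0.0046).

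**Figure D2:**
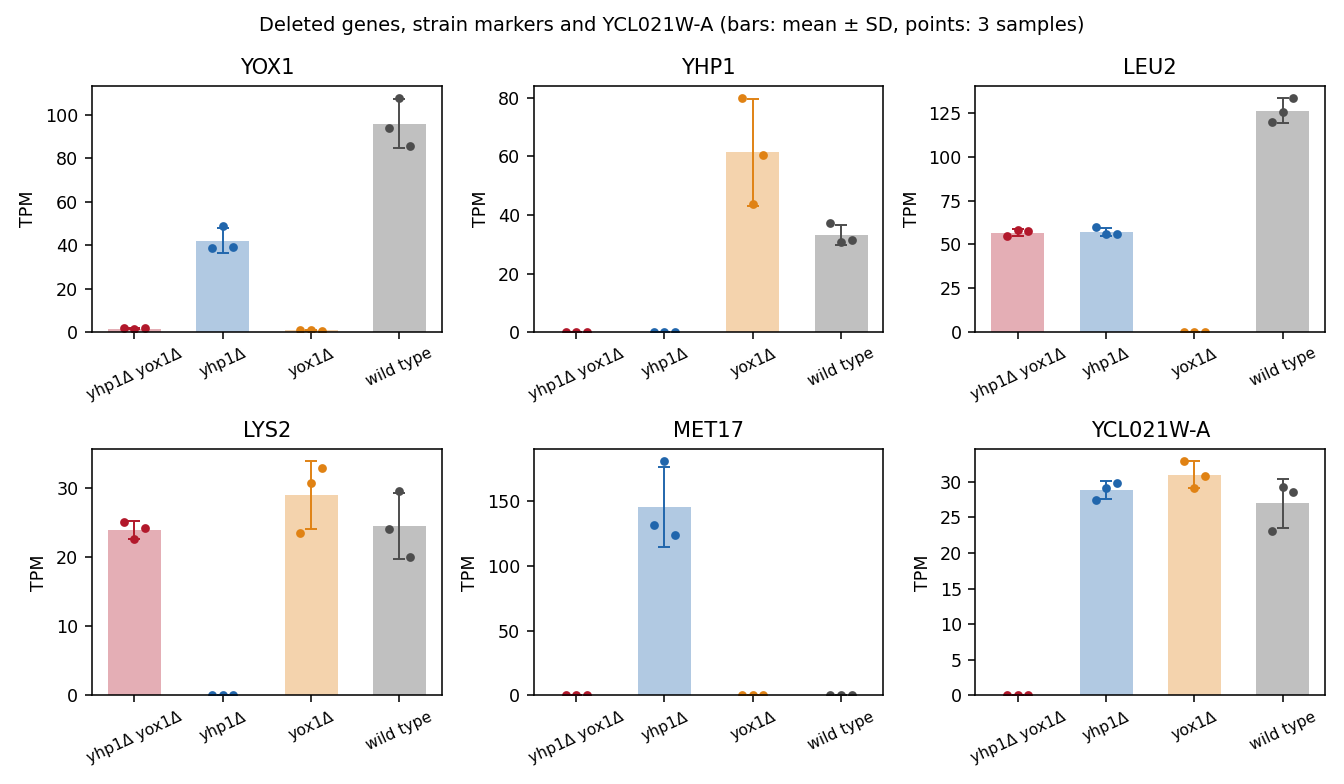
TPM of YOX1, YHP1, LEU2, LYS2, MET17 and YCL021W-A in the 4 strains of the deletion set, with bars for the mean, error bars for the SD and points for the 3 samples. LYS2 is missing from yhp1Δ, MET17 is present only in yhp1Δ and YCL021W-A is missing from yhp1Δ yox1Δ.

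Of 10 genes of lysine synthesis, 3 were called higher, LYS2 among them, and the median was 0.29. Of the 10, 7 were above yhp1Δ without overlap, against 7.34% of all tested genes. LYS9, saccharopine dehydrogenase, had 100.1, 96.3 and 90.9 TPM in yhp1Δ yox1Δ, against 63.5, 65.0 and 62.1 TPM in yhp1Δ, higher by 0.58 (SE 0.09, limma adjusted p = 0.011). LYS20, a homocitrate synthase, had 209, 192 and 209.7 TPM in yhp1Δ yox1Δ, against 127, 151 and 145 TPM in yhp1Δ, higher by 0.53 (SE 0.09, limma adjusted p = 0.030). In both genes the groups lay clearly apart. LYS12 and LYS1 did not pass (log2 differences 0.35 and 0.32, adjusted p = 0.15 and 0.67). The call of LYS20 was lost without replicate 1 or 3 of yhp1Δ yox1Δ or replicate 1 of yhp1Δ (adjusted p = 0.215, 0.178 and 0.159). Since LYS2 differs between the strains, the part of the lysine allele in these changes cannot be told apart from that of YOX1. Of 27 tested methionine genes, MET17 was the only one called, and the median was -0.05. SAM1 and CYS3 had an unadjusted p below 0.05, with log2 differences of -0.24 and -0.20. Of 12 genes of leucine and branched-chain amino acid synthesis none was called, and 4 had an unadjusted p below 0.05, all lower, with a list median of -0.22.

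**Figure D3:**
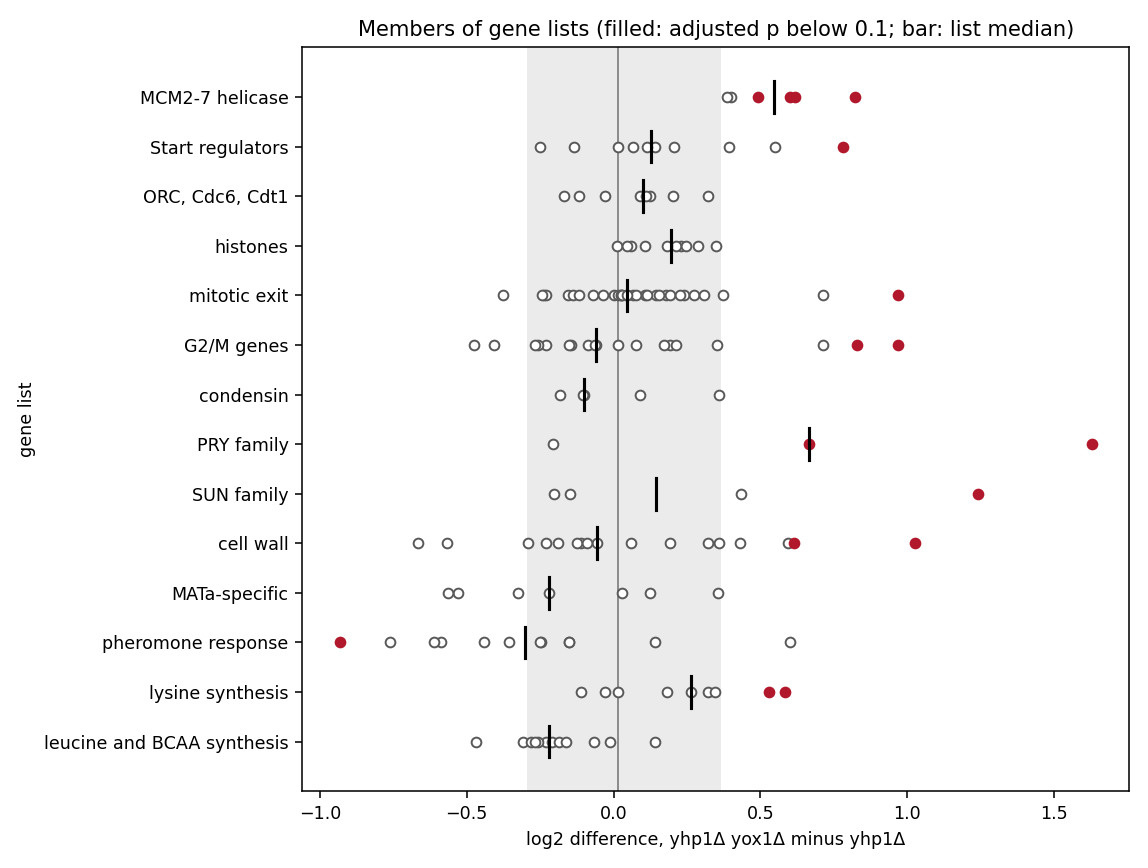
Log2 difference of yhp1Δ yox1Δ minus yhp1Δ for the members of 14 gene lists, with filled points for an adjusted p below 0.1 and a black bar at each list median; LYS2 is left out, DBF2 and MOB1 are among the genes on more than 1 list, and the grey band spans the 5th to 95th percentile of all tested genes, with a line at their median. All 6 MCM2-7 points lie right of the band, and most pheromone response points lie left of the median.

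The genes were also set against a list from other samples of the study, genes that responded when Yhp1, Yox1 or their phosphomutant forms were induced for a short time. The copy used here names 325 genes, fewer than the study's own count, so some of its members may stand among the other genes below. Of the 320 tested, 19 were called higher (5.94%) and 2 lower. Of the other 5991, 7 were called higher (0.117%) and 6 lower. The median of the 320 was 0.09, against 0.02 for all tested genes, with 208 above 0 and 112 below. At an unadjusted p below 0.05, 63 of the 320 were higher and 20 lower, against 161 and 149 of all 6311. YOX1, deleted in yhp1Δ yox1Δ, is 1 of the 2 called lower on the list. The 19 include the PRY, MCM and cell cycle genes above. The 7 called higher outside the list were ECM4, the 3 lysine genes and the 3 tRNA genes.

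Loss of YOX1 with YHP1 present (yox1Δ against wild type) shares no sample with the main comparison and gave 23 called genes (0.364%), 19 of them higher (0.301%). Without LYS2, 25 genes were called higher in the absence of YHP1. Of these, 23 were also above wild type in yox1Δ on average (92%), against 40.1% of all tested genes, and 8 were called there: PRY1, PRY2, MSA2, PIG1, ELO1, MCM4, MCM7 and tE(UUC)K. The exceptions in sign were KIN3 and LYS9. The median of the 25 was 0.82 in the absence of YHP1, the contrast that chose them, and 0.52 in its presence.

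**Figure D4:**
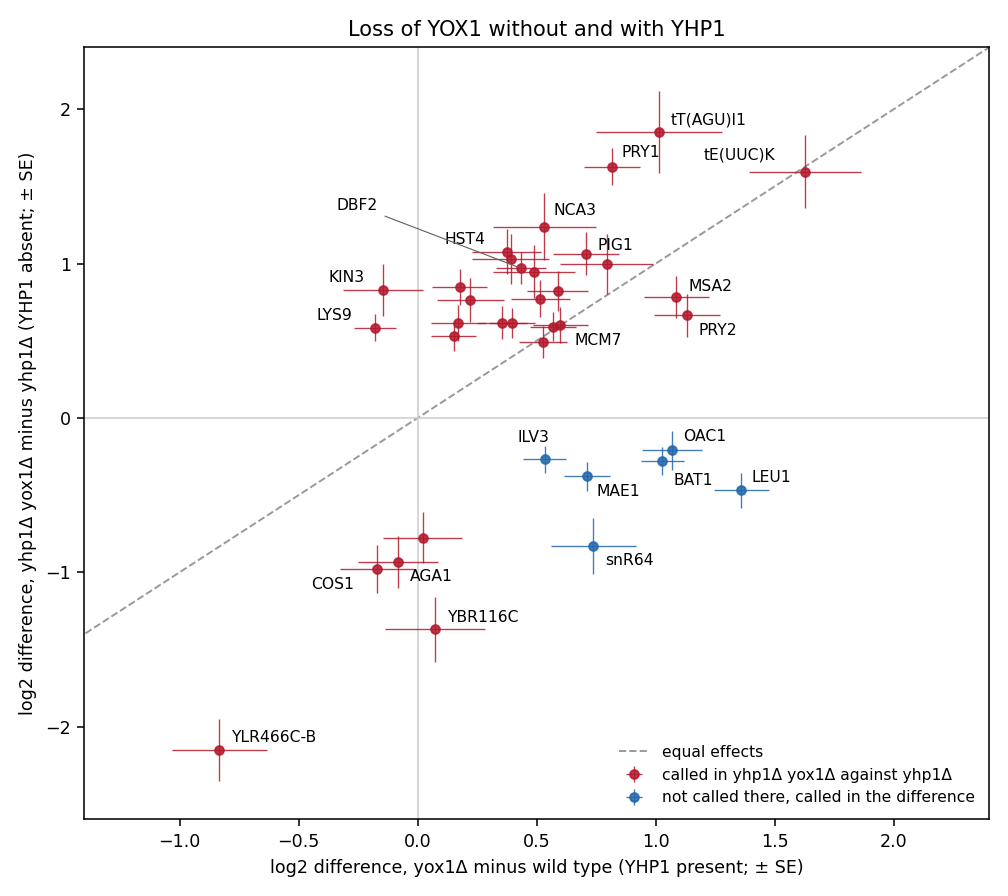
Log2 difference of yhp1Δ yox1Δ minus yhp1Δ (vertical) against that of yox1Δ minus wild type (horizontal), with error bars of 1 SE, for 30 genes called in the vertical comparison (red) and 6 called only in the difference of both effects (blue); the dashed line marks equal effects. PRY1 lies at 1.63 and 0.82, MSA2 and PRY2 lie below the line, KIN3 and LYS9, alone among genes called higher, lie left of 0, and the blue points are below 0 without YHP1 and above 0 with it.

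The difference between both effects was tested, and 12 genes were called (0.19%). At an unadjusted p below 0.05 there were 411 (6.51%). This difference does not belong to YHP1 alone. The effect without YHP1 also holds the change of the lysine and methionine alleles. The effect with YHP1 also holds the loss of LEU2 and of the tags. Of the 25 genes above, LYS9 was the only one among the 12. For PRY1 the effect was 1.63 without YHP1 and 0.82 with it, and the difference of 0.81 (SE 0.17) did not pass (limma adjusted p = 0.17), except without replicate 2 of yhp1Δ (adjusted p = 0.085). For KIN3 the effects were 0.83 and -0.15, with a difference of 0.98 (SE 0.24, adjusted p = 0.37). For DBF2 they were 0.97 and 0.43, with a difference of 0.54 (SE 0.15, adjusted p = 0.60). For HST4 they were 1.08 and 0.37, with a difference of 0.70 (SE 0.20, adjusted p = 0.60). The effects without and with YHP1 were 0.49 and 0.53 for MCM4 and 0.60 and 0.60 for MCM7, and the 95% intervals of the differences, from -0.35 to 0.28 and from -0.36 to 0.36, do not exclude differences within those bounds. MSA2 and PRY2 had the larger effect with YHP1 present, 1.09 and 1.13, against 0.78 and 0.67 in its absence, and these differences did not pass (adjusted p = 0.65 for both).

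The phosphomutant set gave a further description from other samples, the double phosphomutant yhp1-13A yox1-9A against yhp1-13A, in which Yox1 cannot be phosphorylated at the mutated sites. No gene of 6316 was called by limma (0%), and 48 had an unadjusted p below 0.05 (0.76%). Of the 25 genes called higher above, 18 were lower and 7 were higher in the double phosphomutant. Of all 6316 genes, 3508 were lower and 2808 were higher. The median of the 25 was -0.23, while that of all genes was -0.01. MCM5, MCM7, PIG1 and tT(AGU)I1 were lower at an unadjusted p below 0.05, with log2 differences of -0.41, -0.41, -0.37 and -0.98, and MSA2 and YFL067W were higher, by 0.37 and 1.31. PRY1 and DBF2 had differences of -0.58 and -0.29, with unadjusted p of 0.21 and 0.11 by limma.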

How the data were processed

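RNA-seq of asynchronous cultures was used. In the authors' OneStopRNAseq run, STAR 2.5.3a mapped the read pairs to R64-1-1 and featureCounts 1.5.2 counted fragments over exons. The authors deposited TPM values, and how counts became TPM is not given in the sources used here. The methods describe selection of poly(A) RNA and the labels its depletion. Whether counting used strand is not given in the sources used here, so overlapping genes cannot be told apart.

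On log2(TPM + 1) values, limma 3.58.1 (R 4.3.3) fitted 1 model of 4 groups over 12 samples with a trended eBayes. Genes with a mean of at least 1 TPM were kept. Tests were two-sided, the Benjamini-Hochberg adjustment covered every tested gene, and genes were called below an adjusted p of 0.1. Log2 differences and folds are on the TPM + 1 scale, which understates changes of low genes. For genes at 3 fragments or fewer in a group no linear fold is given, and their log2 differences depend on the pseudocount. Whole fragments were recovered from TPM and gene length in every value (100%), which gives the depth. Fragment numbers speak to counting error alone, while the SE and p-values rest on the spread between samples.

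Named were all called genes, strain markers, neighbours of YOX1 and YHP1 and members of fixed lists. Members and lists were chosen with earlier results of these data known. The list of induced responses was taken from the study as gene names only. RefSeq R64 coordinates matched 6048 identifiers, of which 94.41% had the same length. Fits were tested on simulated data. No sample column was left unused (0), and no sample was left out of the main fit.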

Additional observations from a re-analysis of the deposited data

Results flagged for a closer look

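In 12 genes the effect of losing YOX1 differed between strains without and with YHP1, by the test of the difference itself. Marker alleles and tags also differ between these strains and are part of the difference. Differences are the log2 change of yhp1Δ yox1Δ minus yhp1Δ, less that of yox1Δ minus wild type.

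Of these, 4 are loci with almost no fragments in at least 1 strain, and their fitted differences depend on the pseudocount and bound nothing: LEU2 (6.92), which marks all strains but yox1Δ, MET17 (-7.00) and LYS2 (4.38), at which strains differ by met15Δ0 and lys2Δ0, and YCL021W-A (-5.04), which only yhp1Δ yox1Δ lacked. The difference of 1.70 for YOX1 comes with unequal starting levels, 42.2 ± 5.67 TPM for the untagged gene in yhp1Δ and 96.0 ± 11.2 TPM for the tagged gene in wild type (SD, n = 3 each).

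4 genes of leucine and branched-chain amino acid synthesis differed, LEU1 (-1.83), BAT1 (-1.31), OAC1 (-1.28) and ILV3 (-0.80), as did MAE1 (-1.09), the mitochondrial malic enzyme. LEU1, isopropylmalate isomerase, averaged 57.3 ± 2.89 TPM in yhp1Δ yox1Δ, 79.8 ± 6.98 TPM in yhp1Δ, 329 ± 40.1 TPM in yox1Δ and 127 ± 10.5 TPM in wild type (SD, n = 3 each). yox1Δ, the strain without LEU2, was the highest of the 4 in all 5 genes, and the part of LEU2 was not tested. ILV3 lost its call without replicate 1 or 2 of yhp1Δ yox1Δ (limma adjusted p = 0.106 and 0.124).

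LYS9 (0.76) differed, with 95.8 TPM in yhp1Δ yox1Δ, 63.5 TPM in yhp1Δ, 90.7 TPM in yox1Δ and 103 TPM in wild type. yhp1Δ, the strain without LYS2, was the lowest. Its call was lost without replicate 1 or 2 of yhp1Δ yox1Δ, replicate 1 or 3 of yhp1Δ, or replicate 2 of yox1Δ (limma adjusted p up to 0.145). The small nucleolar RNA snR64 (-1.57) had 7.23, 13.6, 14.3 and 8.15 TPM in yhp1Δ yox1Δ, yhp1Δ, yox1Δ and wild type, from 14 to 37 fragments in the first 2 strains. Its call was lost without replicate 1 or 3 of yhp1Δ yox1Δ, replicate 3 of yox1Δ or replicate 3 of wild type (limma adjusted p up to 0.117).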

How the results depend on the processing

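Alternatives changed the pseudocount (0.1), the expression filter (none, or a mean of 10 TPM), the scaling (median of ratios), the variance model (no trend, robust), the test (limma-voom on recovered fragments), the threshold (0.05) and the samples (2 groups only, and each of the 12 samples left out). None of the 34 called genes, and none of the 12 called in the difference between both effects, changed direction under these alternatives. Leaving out 1 sample gave 13 to 31 genes called higher and 6 to 11 called lower. With the replicate number as a block, 43 genes were called higher and 15 lower, and these include all 34 of the fit without the block. Residuals of same-numbered samples of the 2 strains correlated at 0.01, -0.09 and 0.17, and 2 of the 3 double deletion samples correlated better with another number. Same-numbered samples of yox1Δ and wild type correlated at 0.24, 0.34 and -0.17. Whether replicate numbers mark a batch is not stated and was not tested. The fit of 2 groups kept 28 of the 34 calls and lost LYS20, MCM7, tG(GCC)G1, YNL146C-A, PRY2 and YER188C-A (limma adjusted p = 0.111, 0.118, 0.212, 0.128, 0.113 and 0.232). Without expression filtering the calls of PRY2, KIN3 and YER188C-A were lost (0.103, 0.101 and 0.116), with median-of-ratios scaling those of PRY2, LYS20 and YER188C-A (0.112, 0.124 and 0.106), without a trend that of PRY2 (0.125), and with robust eBayes and limma-voom that of YER188C-A (0.102 and 0.221). At a threshold of 0.05 the calls of tG(GCC)G1, MCM4, MCM7, PRY2, KIN3 and YER188C-A were lost. Of the differences between both effects, KIN3 was called with the block (0.049) and YBR116C without expression filtering and without a trend (0.044 and 0.030), LYS9 lost its call with median-of-ratios scaling (0.122) and snR64 with limma-voom (0.199). Depth limits the tRNA genes, YBR116C, YLR466C-B, YFL067W and YER188C-A, whose samples hold at most 152 fragments each.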
